A study of Ovis aries with 8 samples.

Results

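The genes described here run the decision between growth and self-digestion in the cell: the energy sensor AMPK, the growth kinase mTOR with its controls, and the machinery of autophagy. They were chosen by name, as every gene of the deposited table whose symbol starts with ATG and a digit (18 genes) or that stood on a written list of 34 symbols, of which 33 were found. PIK3R4 was not analysed here. That gave 51 of the 27729 genes in the table, and 50 of them reached the mean of 1 TPM over all lambs that was asked of a gene before it was tested. TPM is a gene's share of a library's transcripts, corrected for gene length and scaled to 1000000 per library.

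Autophagy wraps portions of cytoplasm in a membrane and delivers them to the lysosome, and in the fasted liver it supplies amino acids and lipids. When energy is low, AMPK phosphorylates ULK1 and switches autophagy on, whereas mTORC1, the mTOR complex that is active when amino acids and insulin are plentiful, keeps ULK1 off. Much of this control works through phosphorylation, complex assembly and position in the cell, none of which is seen in messenger RNA.

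Liver RNA of 8 sheep (Ovis aries, lambs) was sequenced after poly(A) selection; 4 lambs carry the label ADL and 4 the label RES. What these names stand for, and breed, sex and age, the labels leave unsaid; they give every lamb the same slaughter weight of 27 kg, and the series title names feed restriction of suckling lambs that were later fattened. Every lamb has a library of its own, and the spread shown is therefore between animals. At that common weight the livers of RES and ADL lambs were compared.

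Between 14514084 and 16182407 reads were assigned to genes in a lamb. The 8 hepatocyte markers examined, albumin and transthyretin among them, were all present and together took 12.8 to 18.6% of all TPM. Their summed share lay between 166500 and 186310 TPM in ADL and between 128350 and 170370 TPM in RES. TPM values of a library add up to a fixed total, so they are shares and not absolute amounts. Size factors taken from the TPM values lay between 0.939 and 0.988 in ADL and between 1.02 and 1.08 in RES, without overlap. Differences are on deposited TPM unless called scaled, which means after division by these factors. The hepatocyte sum overlapped in deposited TPM. Scaled, it lay between 168620 and 192960 in ADL and between 126240 and 161370 in RES, without overlap. Of the 8 markers, 2 lay higher in RES and 6 lower. Albumin, the largest, had a mean of 137640 TPM in ADL and 117490 TPM in RES (limma adjusted p = 0.567). Its groups overlapped in deposited TPM. Scaled, all RES lambs lay below all ADL lambs, as for 2.41% of all genes tested. In the authors' deposited DESeq2 comparison albumin has an unadjusted p of 0.0039 and an adjusted p of 0.223. Because whole liver was used, fewer cells of a type and less RNA per cell cannot be told apart.

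No gene of the 3 systems passed the test between RES and ADL. Limma on log2(TPM + 1) called 0 of the 50 tested members, as it called 0 of all 13437 genes tested (0.0%), at a Benjamini-Hochberg adjusted p under 0.05. The smallest adjusted p of a member was 0.395. At an unadjusted p under 0.05 it held 4 members, all higher in RES: ATG12, which is conjugated to ATG5 to build the enzyme that lipidates ATG8 proteins; DEPTOR, an inhibitory subunit of both mTOR complexes; RHEB, the small GTPase that switches mTORC1 on; and RB1CC1, the scaffold of the ULK1 complex. That is 4 of 50, where 11.9% of all genes tested were under that p and 10.4% were under it and higher in RES. The groups did not overlap for the same 4 members, all higher in RES; 7.39% of all genes did not overlap, 6.61% with RES higher and 0.781% with RES lower.

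After division by size factors 3 members had an unadjusted limma p under 0.05, where 7.65% of all genes did. Of these 2 had it on the higher side, where 3.4% of all genes did. They were ATG12 and DEPTOR, and the groups still did not overlap for them, as for 4.63% of all genes tested (2.22% with RES higher). On the lower side stood MLST8, a subunit of both mTOR complexes, where 4.25% of all genes did. Voom, run on whole reads recovered from TPM, held the same 3 members under that p, beside 7.78% of all genes. In the authors' deposited table the same 3 members, ATG12, DEPTOR and MLST8, have an unadjusted p under 0.05, and 5.18% of the genes with a p do. The smallest adjusted p of a member in the authors' deposited table is 0.419, for ATG12, and 0.231% of the genes with an adjusted p lie under 0.05 there.

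Without any 1 of the 8 lambs, ATG12, DEPTOR and RHEB kept a limma p under 0.05. RB1CC1 lost it when RES lamb 1, RES lamb 2 or ADL lamb 2 was left out. The number of members under that p was 7 without ADL lamb 4, where 10.8% of all genes were under it, and 7 without RES lamb 4, where 8.46% were. Members without overlap numbered 9 without ADL lamb 1 and 7 when ADL lamb 4, RES lamb 1 or RES lamb 2 was left out, in fits where 11.1 to 12.9% of all genes did not overlap.

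**Figure D1:**
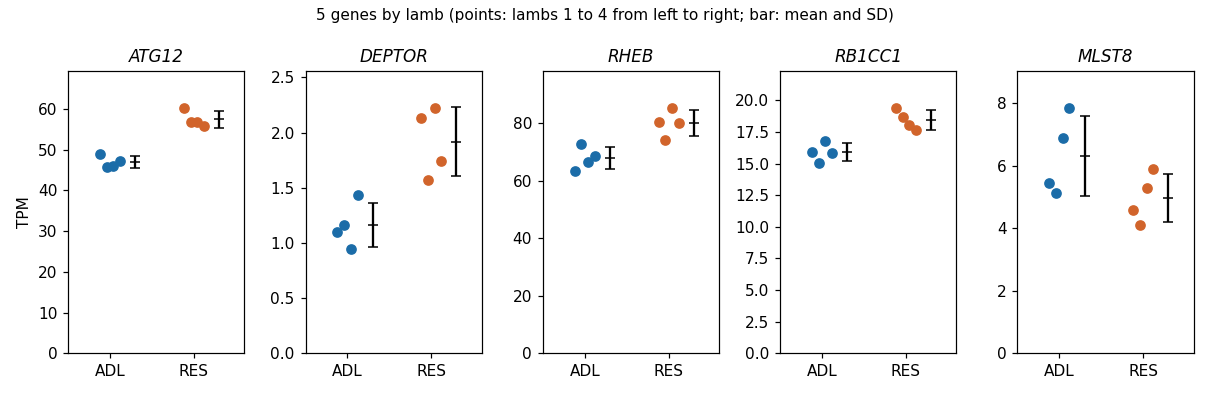
TPM of 5 genes on the vertical axis, each axis starting at 0, for the 4 ADL and 4 RES lambs; points are lambs and bars are the mean with its SD. The RES lambs lie above all ADL lambs for ATG12, DEPTOR, RHEB and RB1CC1, and the groups overlap for MLST8.

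Most differences lay slightly above 0, for the members as for all genes. The median log2 difference of the 50 members, RES minus ADL, was 0.11, beside 0.09 for all genes tested, and 43 of the 50 lay above 0, as did 71.0% of all genes. After division by size factors the median was 0.015 beside 0.0056, with 29 members above 0 and 21 below, where 51.6% of all genes lay above 0. The 95% interval of the limma difference lay within 0.5 log2 units of 0 for 42 of the 50 members and within 1 unit for all 50. Over all 13437 genes tested it did so for 8296 and 12587. Between lambs of a group the median residual SD of the members was 0.13 log2 units, against 0.18 over all genes tested. Over 115 other tested genes of the same pathways, described below, it was 0.14, so this spread was not particular to the members. Among the members TSC2 had the lowest at 0.045 and ATG16L2 the highest at 0.30.

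**Figure D2:**
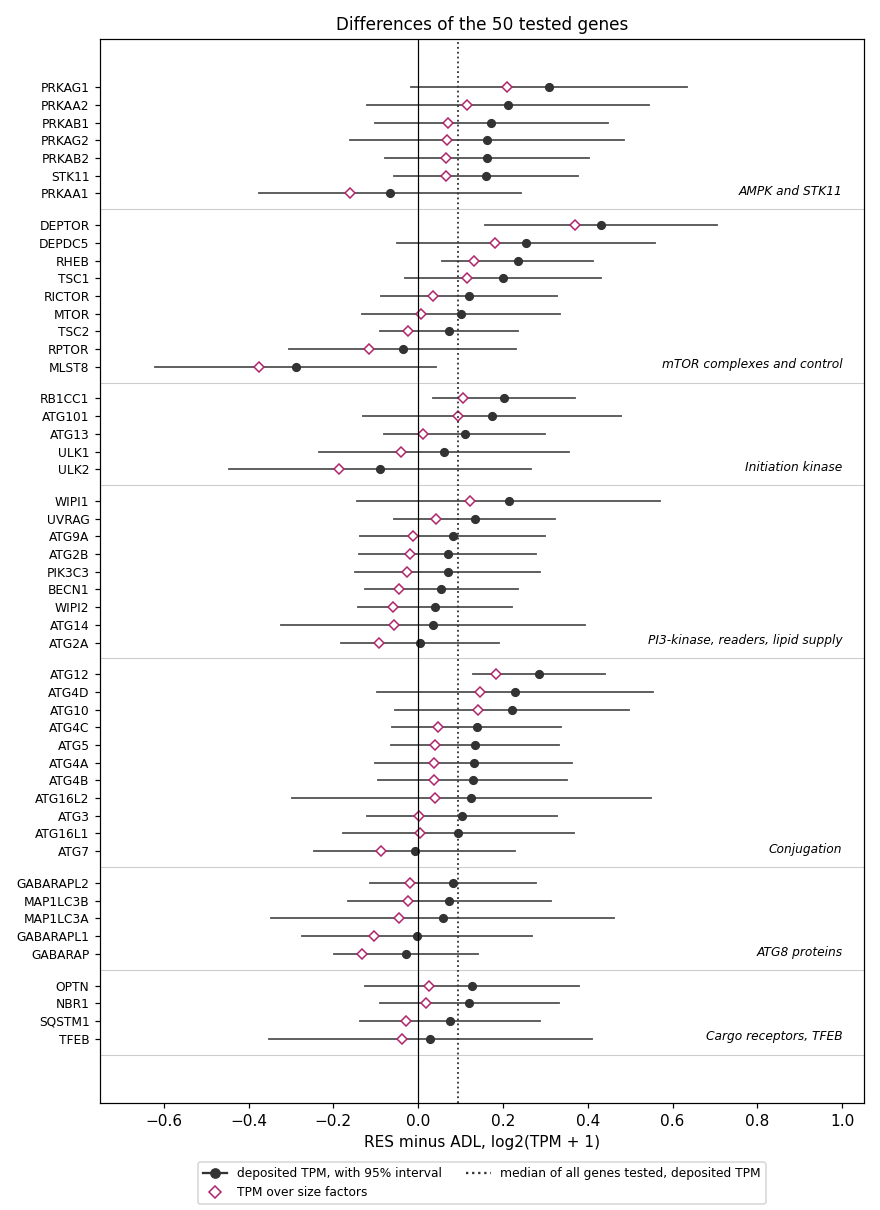
RES minus ADL on the log2(TPM + 1) scale for the 50 tested genes, by role; filled points with lines are deposited TPM with the 95% interval of limma, open diamonds are TPM over size factors, and the dotted line is the median of all genes at 0.09. Most intervals cross 0, and the diamonds lie to the left of the points.

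AMPK is built from a catalytic alpha, a scaffolding beta and a nucleotide-binding gamma subunit, and the kinase STK11 (LKB1) activates it. The highest of the 7 genes was PRKAB1, the beta-1 subunit, at 41.0 ± 4.23 TPM in the ADL lambs and 46.5 ± 6.79 TPM in the RES lambs (all such pairs are mean ± SD with n = 4, ADL first). The beta-1 gene held 76.2 to 81.8% of the beta-subunit TPM of a lamb. The catalytic genes were near parity: PRKAA1 stood at 11.4 ± 1.95 and 10.8 ± 1.49 TPM, and PRKAA2 at 11.2 ± 1.97 and 13.1 ± 2.21 TPM. PRKAA2 held 42.5 to 56.1% of the alpha-subunit TPM in ADL and 51.8 to 59.5% in RES, so the groups overlapped.

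None of the 7 AMPK genes had an unadjusted limma p under 0.05. The gamma-1 gene PRKAG1 had the smallest. It read 18.4, 22.2, 16.9 and 24.0 TPM in ADL lambs 1 to 4 and 30.4, 27.5, 22.7 and 21.4 TPM in RES lambs 1 to 4. RES lambs 1 and 2 were the high ones, and RES lambs 3 and 4 lay among the ADL lambs. Its log2 difference was 0.31 ± 0.14 (limma SE, adjusted p = 0.434), or 0.21 after division by size factors. PRKAG2, the gamma-2 gene, stood at 11.5 ± 2.73 and 12.8 ± 1.08 TPM. STK11 read 11.1, 11.9, 10.3 and 13.2 TPM in ADL and 13.6, 13.9, 12.9 and 11.9 TPM in RES, with a difference of 0.16 ± 0.10 (limma adjusted p = 0.5), or 0.065 scaled. The differences of PRKAB2 and PRKAA1 were 0.16 and -0.07, or 0.067 and -0.16 scaled.

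The mTOR group holds the subunits of both complexes and the switch above them. MTOR, the kinase itself, stood at 11 ± 0.901 and 11.9 ± 1.37 TPM. RPTOR, which defines mTORC1, stood at 3.43 ± 0.513 and 3.31 ± 0.423 TPM, and RICTOR, which defines mTORC2, at 4.38 ± 0.304 and 4.85 ± 0.417 TPM. For these 3 genes the groups overlapped, and the differences were 0.10, -0.04 and 0.12 on the log2 scale, or 0.0057, -0.12 and 0.034 scaled.

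DEPTOR was the lowest expressed of the 9 genes in this group. It read 1.10, 1.17, 0.948 and 1.43 TPM in ADL lambs 1 to 4 and 2.14, 1.57, 2.23 and 1.74 TPM in RES lambs 1 to 4. Every RES lamb lay above every ADL lamb, with the closest values at 1.43 and 1.57 TPM. The difference was 0.43 ± 0.12 on the log2(TPM + 1) scale (limma SE, unadjusted p = 0.00614, adjusted p = 0.395), and that scale understates the change of so low a gene. The means had a ratio of 1.65. In the authors' deposited table its log2 fold change is 0.39 ± 0.17 (shrunken, SE) and it has no adjusted p.

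Few reads stand behind DEPTOR: 24, 26, 23 and 34 in ADL and 46, 36, 50 and 37 in RES. Its level relative to MTOR in the same lamb, a ratio that no scaling of the library can move, was 0.108, 0.105, 0.0894 and 0.117 in ADL and 0.163, 0.129, 0.224 and 0.139 in RES. The groups did not overlap for this ratio. It rests on the same few DEPTOR reads, so it is not separate evidence. It was the only ratio of the 13 computed whose groups did not overlap, and no share over other gene pairs was computed.

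MLST8, the small subunit common to both complexes, is named here after its values were seen. It read 5.44, 5.12, 6.88 and 7.86 TPM in ADL and 4.59, 4.11, 5.28 and 5.89 TPM in RES. ADL lambs 3 and 4 were high, and ADL lambs 1 and 2 lay among the RES lambs. The difference was -0.29 ± 0.15 (limma adjusted p = 0.454), or -0.38 scaled (limma, unadjusted p = 0.027). Between 43 and 85 reads per lamb stand behind it. Of the TPM summed over MTOR, RPTOR, RICTOR, MLST8 and DEPTOR, MLST8 held 20.6 to 26.4% in ADL and 16 to 20.9% in RES, and DEPTOR 3.64 to 4.80% and 6.11 to 8.70%.

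Above the complexes stand the TSC proteins, which hold RHEB in its inactive form, and GATOR1, with its subunit DEPDC5, which silences the Rag GTPases when amino acids are scarce. RHEB was the highest expressed gene of the group. It read 63.4, 72.7, 66.4 and 68.7 TPM in ADL and 80.3, 74.2, 85.3 and 79.9 TPM in RES. The highest ADL lamb stood at 72.7 and the lowest RES lamb at 74.2 TPM, and the groups overlapped after division by size factors. Its difference was 0.23 ± 0.08 (limma adjusted p = 0.395), or 0.13 scaled. TSC1 stood at 3.94 ± 0.301 and 4.69 ± 0.570 TPM and TSC2 at 11.8 ± 0.228 and 12.5 ± 0.545 TPM. DEPDC5 stood at 2.06 ± 0.463 and 2.63 ± 0.379 TPM. These 3 had limma adjusted p of 0.456, 0.679 and 0.466, and their groups overlapped.

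The annotation puts RHEB on chromosome 4 from 113375742 to 113427373, close to the AMPK gene PRKAG2 at 113460119 to 113521283. TSC2 and MLST8 lie close together on chromosome 24, at 1574786 to 1604263 and 1711100 to 1715589. DEPTOR lies on chromosome 9 from 93707127 to 93743279, and ATG12 on chromosome 7 from 4440881 to 4461371. These are coordinates of the authors' annotation; no label or header names its genome build.

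Autophagy starts with the ULK1 kinase complex, made of ULK1 or ULK2, ATG13, ATG101 and RB1CC1 (FIP200). RB1CC1 read 15.9, 15.1, 16.8 and 15.9 TPM in ADL and 19.4, 18.6, 18.0 and 17.7 TPM in RES. All RES lambs lay above all ADL lambs. The difference was 0.20 ± 0.07 (limma SE, adjusted p = 0.395), or 0.10 scaled, where the groups overlapped. ULK1 was the highest of the 5 at 31.9 ± 4.51 and 33.2 ± 4.40 TPM, and its difference of 0.06 turned to -0.04 after division by size factors. ULK2 stood at 15.4 ± 1.96 and 14.7 ± 3.59 TPM. ATG13 stood at 17.4 ± 0.567 and 18.9 ± 1.68 TPM (0.11 ± 0.08, limma adjusted p = 0.590; 0.012 scaled) and ATG101, the lowest, at 3.08 ± 0.805 and 3.54 ± 0.180 TPM.

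The class III phosphatidylinositol 3-kinase then marks the growing membrane. Its catalytic subunit PIK3C3 (VPS34) works with BECN1 and either ATG14 or UVRAG. WIPI proteins read the lipid it makes, the ATG2 proteins carry lipid to the membrane, and ATG9 scrambles it. In this group no member had an unadjusted limma p under 0.05, the median difference was 0.07, and the scaled median was -0.03. BECN1 was the highest, at 34.0 ± 1.6 and 35.4 ± 2.41 TPM, and its difference changed sign with scaling (0.05 and -0.05). UVRAG had the smallest p. It read 7.61, 6.38, 6.97 and 6.99 TPM in ADL and 7.55, 7.93, 8.20 and 7.33 TPM in RES, a difference of 0.13 ± 0.08 (limma adjusted p = 0.519), or 0.042 scaled. ADL lamb 1 lay above RES lambs 1 and 4, so the groups overlapped. WIPI1 came next at 7.36 ± 1.68 and 8.59 ± 1.13 TPM (0.21 ± 0.16, limma adjusted p = 0.576; 0.12 scaled).

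Among the remaining genes of this step PIK3C3 lay between 9.88 and 13.2 TPM and ATG14 between 5.83 and 10.4 TPM over the 8 lambs. WIPI2 stood at 29.0 ± 2.03 and 29.8 ± 1.46 TPM, and exceeded WIPI1 in every lamb by a ratio of 3.09 to 5.90. ATG2A was level between the groups at 11.7 ± 0.952 and 11.7 ± 0.251 TPM, and ATG2B stood at 6.13 ± 0.346 and 6.50 ± 0.626 TPM. Of the ATG9 genes the liver used ATG9A, at 9.37 ± 0.873 and 9.96 ± 0.876 TPM. ATG9B had 0 to 2 reads in a lamb and was the 1 member left untested.

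Conjugation attaches ATG8 proteins to lipid. ATG7 activates both ATG8 and ATG12, ATG3 and ATG10 are the transferring enzymes, ATG16L1 directs the ATG12-ATG5 conjugate to the membrane, and ATG4 proteases trim and recycle ATG8. ATG12 read 48.9, 45.7, 45.9 and 47.2 TPM in ADL lambs 1 to 4 and 60.3, 56.7, 56.8 and 55.7 TPM in RES lambs 1 to 4. The groups were separate by more than the range within either, since the highest ADL lamb stood at 48.9 and the lowest RES lamb at 55.7 TPM. The means had a ratio of 1.22. Its log2 difference of 0.28 ± 0.07 had the smallest p among the members (limma, unadjusted p = 0.00255, adjusted p = 0.395), at rank 62 of all 13437 genes.

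The difference was smaller once scaled: ATG12 lay 0.18 higher in RES after division by size factors (limma, unadjusted p = 0.0309). With voom it lay 0.18 higher (limma, unadjusted p = 0.0369). Between 827 and 1055 reads per lamb stand behind it. In the authors' deposited table its log2 fold change is 0.18 ± 0.08 (shrunken, SE). ATG5, the partner of ATG12, stood at 11.1 ± 0.837 and 12.3 ± 0.822 TPM, a difference of 0.13 ± 0.09 (limma adjusted p = 0.529) or 0.039 scaled, and its groups overlapped.

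The other conjugation genes overlapped as well. ATG10, which joins ATG12 to ATG5, read 3.08, 3.46, 2.87 and 3.79 TPM in ADL and 3.12, 4.46, 4.34 and 4.19 TPM in RES, so RES lamb 1 lay among the ADL lambs (0.22 ± 0.12, limma adjusted p = 0.480; 0.14 scaled). ATG7, the lowest of the 11 on average, stood at 3.58 ± 0.388 and 3.56 ± 0.382 TPM. ATG3 stood at 37.4 ± 3.94 and 40.2 ± 3.38 TPM, ATG16L1 at 7.41 ± 0.693 and 8.03 ± 1.31 TPM, and ATG16L2 at 5.19 ± 1.06 and 5.81 ± 1.56 TPM. The ATG4 genes lay 0.13 to 0.23 log2 units higher in RES (limma adjusted p between 0.519 and 0.597), or 0.038 to 0.15 scaled. The median over all genes was 0.09, or 0.0056 scaled. ATG4A, ATG4B and ATG4C each held 20.6 to 35.6% of the ATG4 TPM of a lamb and ATG4D 11 to 20.3%.

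**Figure D3:**
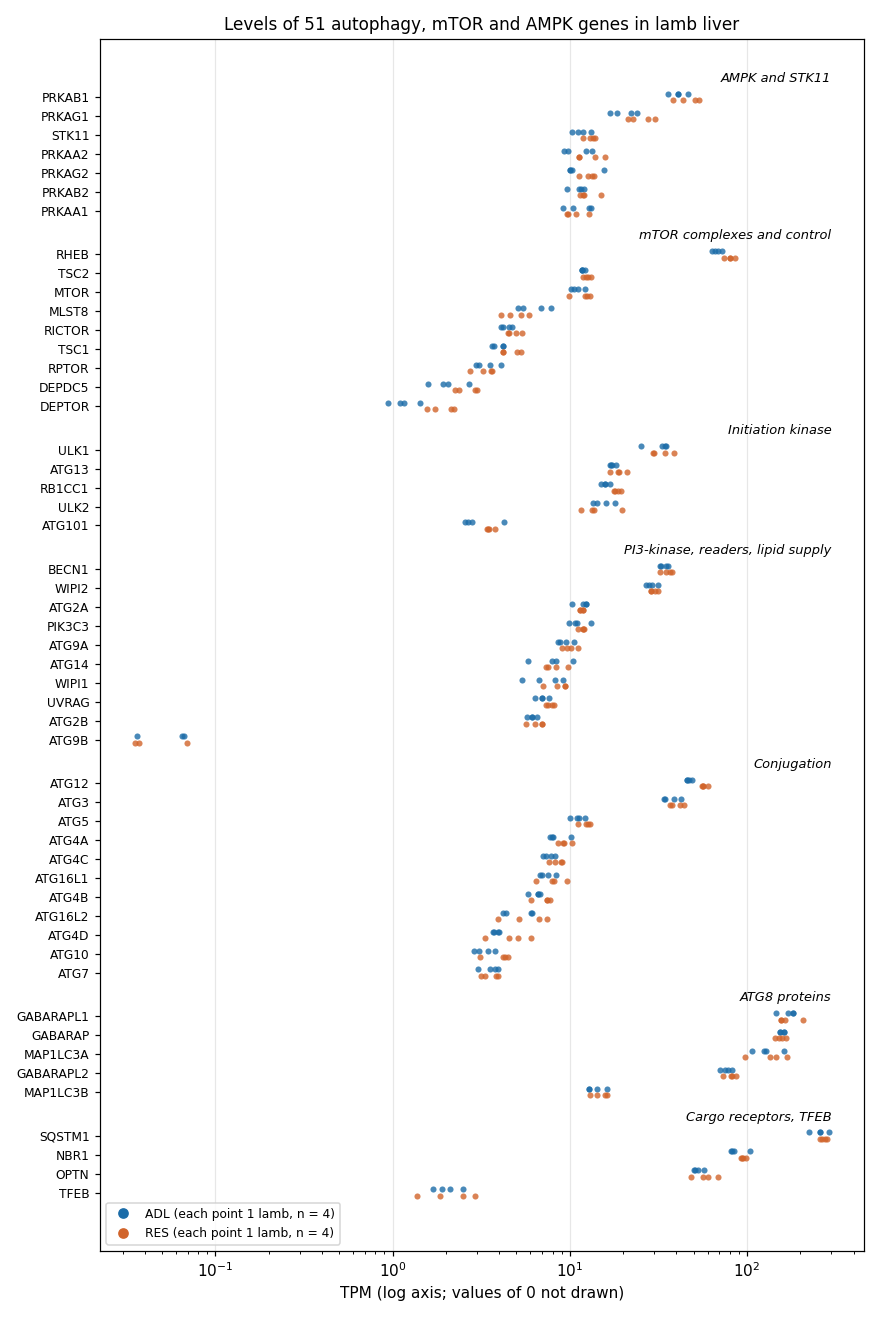
TPM on a log axis for all 51 genes, grouped by role and ordered by level, with each lamb as a point (blue ADL, orange RES); values of 0 are not drawn. Levels run from ATG9B below 0.1 TPM to SQSTM1 at 224 to 290 TPM, and the colours separate only for ATG12, DEPTOR, RHEB and RB1CC1.

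The ATG8 proteins coat the membrane and hold the cargo receptors. They include the LC3 and the GABARAP branches. Apart from MAP1LC3B these genes were among the most abundant members. GABARAPL1 stood at 171 ± 17.5 and 171 ± 24.9 TPM, GABARAP at 158 ± 4.00 and 155 ± 9.60 TPM, MAP1LC3A at 130 ± 22.8 and 137 ± 29.6 TPM, and GABARAPL2 at 76.4 ± 5.10 and 81.0 ± 6.03 TPM. Of the 5 genes 3 lay above 0 and 2 below in deposited TPM, and all 5 lay below 0 after division by size factors (median -0.05); 0 of them had an unadjusted limma p under 0.05 on either scale. GABARAPL2 and MAP1LC3B had the smallest p, with limma adjusted p of 0.690 and 0.780.

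Within the family GABARAPL1 held 27.1 to 34.2% of the TPM of a lamb, GABARAP 25.9 to 32.5%, MAP1LC3A 19.6 to 29.3%, GABARAPL2 13.4 to 15.7% and MAP1LC3B 2.34 to 2.85%. The first 3 shares overlap, so their order is not fixed from lamb to lamb. MAP1LC3A varied most between lambs, from 97.3 TPM in RES lamb 4 to 168 TPM in RES lamb 2.

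The low value of MAP1LC3B, 14.0 ± 1.59 and 14.8 ± 1.5 TPM, is uncertain as the value of that gene. The table also lists LOC105604794, described as a pseudogene of LC3B, at 41.6 ± 1.29 and 43.2 ± 4.74 TPM. In each lamb the pseudogene stood above the gene by a ratio of 2.65 to 3.26. Reads of near-identical copies can be split by the counting method, and no label or header names it. The sum of both lay between 52.8 and 59.2 TPM in ADL and between 50.8 and 64.1 TPM in RES, again with overlap. Of the 8 loci described as pseudogenes of members or as like them, 3 others had a mean of at least 1 TPM. They were a beclin-1-like gene (2.73 TPM), a gamma-2-like AMPK gene (4.67 TPM) and an ATG16L1-like gene (1.28 TPM), all below their members. The gamma-2-like locus, on chromosome 4 from 113570987 to 113767282, lies close to PRKAG2. The ATG16L1-like locus, on chromosome 1 from 7479361 to 7485325, lies close to ATG16L1, at 7443486 to 7476682. Whether these 2 loci are parts of the same genes was not tested.

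Cargo receptors bind ubiquitinated cargo and ATG8 proteins at once, and being degraded with their cargo they are read at the protein level as a gauge of flux. SQSTM1 (p62) was the most abundant member of all. It read 258, 224, 290 and 258 TPM in ADL and 257, 276, 283 and 265 TPM in RES. The RES lambs lay inside the ADL range, and the difference was 0.08 ± 0.09 (limma adjusted p = 0.742), or -0.03 scaled. NBR1 read 103, 85.0, 82.3 and 80.9 TPM in ADL and 92.9, 93.7, 95.2 and 99.0 TPM in RES. Only ADL lamb 1 stood above the RES lambs (0.12 ± 0.09, limma adjusted p = 0.590; 0.019 scaled). OPTN stood at 53.0 ± 3.22 and 58.4 ± 8.56 TPM (0.13 ± 0.11, limma adjusted p = 0.634; 0.026 scaled). TFEB, the transcription factor that drives lysosome and autophagy genes when mTORC1 is off, was low at 2.06 ± 0.348 and 2.16 ± 0.685 TPM, on 19 to 43 reads a lamb.

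**Figure D4:**
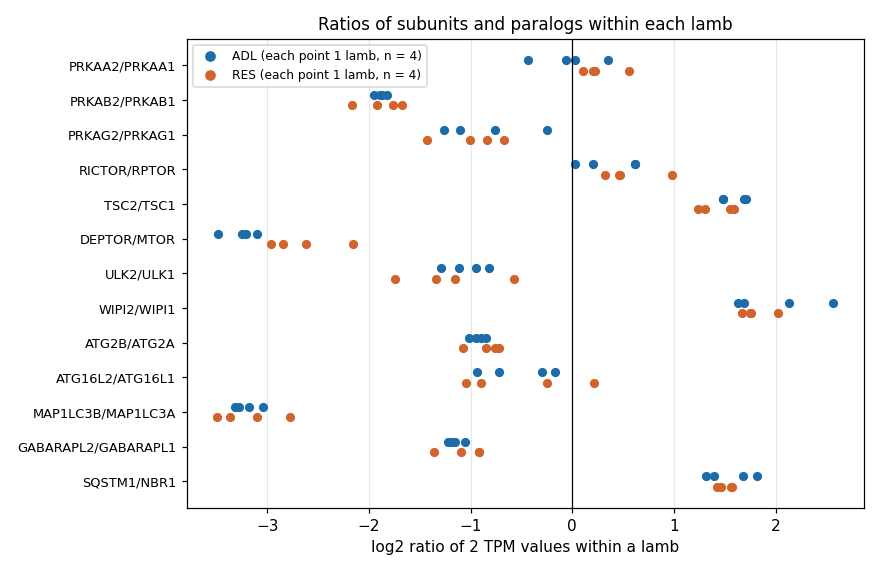
Log2 of the ratio of 2 TPM values within the same lamb for 13 pairs of subunits or paralogs; each point is a lamb (blue ADL, orange RES) and 0 means equal levels. DEPTOR over MTOR is the only pair whose groups do not overlap.

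Ratios within a lamb do not depend on how the library is scaled. RICTOR over RPTOR lay between 1.02 and 1.53 in ADL and between 1.25 and 1.97 in RES, and TSC2 over TSC1 between 2.79 and 3.26 and between 2.35 and 3.01. ULK2 over ULK1 lay between 0.409 and 0.567 in ADL, and the RES lambs spread on both sides of that, from 0.299 to 0.671. SQSTM1 over NBR1 lay between 2.49 and 3.52 in ADL and 2.67 and 2.98 in RES. For ATG9B over ATG9A no ratio was made, as ATG9B was listed at 0 in some lambs.

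A further 126 genes of the same pathways, in 7 lists, were looked up, and 121 were found and 115 tested. Limma called 0 of the 115 at an adjusted p under 0.05. At an unadjusted p under 0.05 it held 11, all higher in RES (4 after division by size factors), and 9 had groups without overlap (5 scaled). Over all genes the shares were 11.9% and 7.39%, or 7.65% and 4.63% scaled. The median difference was 0.09, the same as over all genes.

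Among 13 tested partners and substrates of AMPK 2 had groups that did not overlap, where 7.39% of all genes did not. The median difference of the 13 was 0.062, beside 0.09 over all genes. CAB39 (MO25), which holds STK11 in its active shape, read 21.5, 21.9, 20.9 and 22.5 TPM in ADL and 27.2, 24.6, 26.3 and 26.5 TPM in RES. Its difference was 0.26 ± 0.07 (limma adjusted p = 0.395), or 0.16 scaled. MAP3K7 (TAK1), a kinase that can phosphorylate AMPK, stood at 10.3 ± 0.356 and 12.4 ± 0.209 TPM (0.25 ± 0.07, limma adjusted p = 0.395; 0.16 scaled). Both stayed without overlap after division by size factors, where 4.63% of all genes did not overlap.

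Of 28 tested genes of amino acid sensing upstream of mTORC1, 22 lay above 0 and 12 did so scaled. Of all genes 71.0% did, or 51.6% scaled. CASTOR2, a relative of the arginine sensor CASTOR1, stood at 1.2 ± 0.364 and 1.93 ± 0.221 TPM on 13 to 30 reads a lamb (0.42 ± 0.13, limma adjusted p = 0.395; 0.36 scaled). LAMTOR5, a subunit of the Ragulator that anchors the Rag GTPases at the lysosome, stood at 60.0 ± 5.66 and 70.2 ± 6.51 TPM (0.22 ± 0.10, limma adjusted p = 0.424; 0.12 scaled). In the list of 18 tested mTOR subunits, regulators and outputs, SGK1, a kinase downstream of mTORC2 that glucocorticoids also induce, read 15.6, 33.4, 18.7 and 28.6 TPM in ADL and 29.5, 42.2, 46.4 and 48.6 TPM in RES. Only RES lamb 1 lay within the ADL range. The difference was 0.80 ± 0.25 (limma adjusted p = 0.395), or 0.70 scaled. EIF4E, the cap-binding protein released by mTORC1, stood at 19.9 ± 2.14 and 24.2 ± 1.44 TPM (0.27 ± 0.09, limma adjusted p = 0.395; 0.17 scaled).

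The 16 other tested core autophagy genes had the highest median difference of the 7 lists, 0.20, beside 0.09 over all genes. Scaled it was 0.11, beside 0.0056. Of the 16, 15 lay above 0, or 10 scaled, where 71.0 and 51.6% of all genes did. The groups did not overlap for 3 of them, in deposited and in scaled TPM, where 7.39 and 4.63% of all genes did not. SH3GLB1 (Bif-1), which binds UVRAG and curves membranes, stood at 11.6 ± 0.366 and 14.4 ± 1.32 TPM (0.28 ± 0.09, limma adjusted p = 0.395; 0.18 scaled). TRAPPC8, of a vesicle tethering complex, stood at 11.9 ± 0.257 and 14.0 ± 0.659 TPM (0.22 ± 0.07, limma adjusted p = 0.395; 0.12 scaled). The third was EPG5, a tether between autophagosome and lysosome, at 3.22 ± 0.0930 and 3.88 ± 0.186 TPM, named after its values were seen.

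Selective receptors carry particular organelles to the autophagosome. Of 20 tested receptors and mitophagy genes 18 lay above 0, or 9 scaled, where 71.0 and 51.6% of all genes did. CCPG1 and SEC62, receptors for endoplasmic reticulum, stood at 47.0 ± 3.05 and 55.7 ± 1.95 TPM and at 174 ± 8.81 and 205 ± 15 TPM, without overlap in deposited TPM and with overlap scaled. STX17 and VPS16 of lysosome fusion stood at 4.38 ± 0.362 and 5.27 ± 0.398 TPM and at 9.45 ± 0.644 and 10.4 ± 1.04 TPM. MITF, a relative of TFEB, stood at 1.83 ± 0.110 and 2.24 ± 0.199 TPM, and PPARA, a fasting receptor that also drives autophagy genes, at 27.5 ± 1.89 and 30.8 ± 4.97 TPM. All 6 had limma adjusted p between 0.395 and 0.613.

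Other features of the livers were also compared between the groups. Immediate-early and heat-shock genes respond within minutes to stress and tissue handling. Of 16 tested, 14 lay above 0, where 71.0% of all genes did. Of these 16, 9 had an unadjusted limma p under 0.05, all higher in RES, where 11.9% of all genes did. These were the heat-shock genes HSPA1A, HSPA8, DNAJA1, DNAJB1, HSPH1, BAG3 and HSP90AA1, with JUN and ATF3 of the immediate-early genes. FOS, EGR1, DUSP1, IER2, JUNB, IER3 and HSPB1 were not under that p, and JUNB and IER3 lay lower (-0.10 and -0.23). In scaled TPM 6 of the 16 were higher and 1, IER3 (-0.33), was lower at that p, where 7.65% of all genes were under it. The summed level of the 17 found overlapped between the groups, at 800 to 1025 TPM in ADL and 1014 to 1674 TPM in RES. It was highest in RES lambs 4 and 1. The part of these genes in the differences of ATG12, DEPTOR, RHEB and RB1CC1 was not tested. Summed levels of 9 macrophage markers (878 to 1137 TPM in ADL, 749 to 1365 in RES), 11 lymphocyte markers (36.9 to 54.2 and 34.5 to 56.2 TPM), 9 stellate and fibroblast markers (238 to 365 and 250 to 282 TPM), 7 endothelial markers (130 to 156 and 151 to 168 TPM), 6 bile duct markers (13.8 to 22.4 and 16.5 to 23.6 TPM) and 4 erythroid markers (20.8 to 73.0 and 3.46 to 36.2 TPM) overlapped between the groups. None of these markers was at 0 in all 8 lambs. The hepatocyte sum, given above, overlapped in deposited TPM but not when scaled.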

How the data were processed

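Poly(A) RNA of 8 lamb livers was read from both ends for 100 bases, per the labels' protocols. The authors used bcl2fastq 1.8.4 and DESeq2 1.12.4, per the submitters' processing notes. No label or header names an aligner, a counter or a genome build. The authors deposited TPM per gene and lamb with the gene length used, per the file headers. Beside it stands the authors' own DESeq2 comparison of the groups, per the file headers: the deposited mean of normalized counts (a signal scaled by size factors), log2 fold changes with standard errors, the Wald statistic (a score), p-values and adjusted p-values.

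TPM times gene length gave whole reads for 100% of values within a tolerance of 1e-06, and means of these over size factors matched the deposited means at a ratio of 1. Groups came from sample titles. Genes averaging 1 TPM or more were compared with limma 3.58.1 (trended eBayes on log2(TPM + 1), R 4.3.3), Benjamini-Hochberg adjusted over all genes tested; the step was tested on simulated data. Intervals are limma's at 95%, not adjusted. Size factors are medians of ratios over genes above 0 in every lamb.

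The members and lists were chosen with earlier results of these data known. The rule named members without overlap and those at an unadjusted p under 0.05. In each role group it also took the 2 members with the smallest p and those with the highest and lowest level. From each other list it took the 2 with the smallest p. Levels of the remaining members, and for some also differences or adjusted p, are given as description. MLST8 and EPG5, outside the rule, are marked as named after their values were seen. Of the 126 other pathway symbols 121 were found, 9 of them through a sheep RefSeq gene table; of 76 marker symbols 71 were found, 3 of them through that table or an alias. The RefSeq table (ARS-UI_Ramb_v3.0) was used for names only. Lambs with the same number did not deviate together in every pair, so lamb numbers were not used to pair them. Alternatives were other pseudocounts (0.1 and 5), filters (none, and 5 TPM), scalings, robust eBayes, voom on recovered reads, a replicate block and leaving out each lamb.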

Additional observations from a re-analysis of the deposited data

Results flagged for a closer look

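In 74 groups of 4 lambs (24 members and 13 ratios, both groups each), 2 held a lamb far from the other 3 by Dixon's criterion at 95%; chance flags about 1 in 20 groups. ATG101 stood at 4.28 TPM in ADL lamb 4 and between 2.56 and 2.82 TPM in the other ADL lambs. ULK1 stood at 25.2 TPM in ADL lamb 1 and between 33.2 and 34.8 TPM in the other ADL lambs.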

How the results depend on the processing

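The number of genes called, 0 in limma with 1594 at an unadjusted p under 0.05, was 1 without a filter on low values and 13 in the authors' deposited table, and between 0 and 1 without 1 lamb (1 without ADL lamb 1, RGS6). Members at an unadjusted p under 0.05 numbered 3 to 7 without 1 lamb, where 6.95 to 12.6% of all genes were under it. The median difference of the members, 0.11, was 0.083 with a pseudocount of 5, 0.015 over size factors, 0.015 after quantile normalization and 0.0085 with voom, and lay between 0.099 and 0.12 without 1 lamb. Members whose groups did not overlap numbered 2 under each of the last 3 scalings (4.63, 4.24 and 4.58% of all genes) and 4 to 9 without 1 lamb (9.06 to 13.4%). Among the 23 members named by the rule, differences that changed sign under size factors, quantile normalization and voom were those of ULK1 (-0.040, -0.041 and -0.046), BECN1 (-0.046, -0.060 and -0.054), GABARAPL2 (-0.019, -0.019 and -0.026), MAP1LC3B (-0.024, -0.053 and -0.031) and TFEB (-0.039, -0.035 and -0.084). SQSTM1 did so under size factors (-0.028) and voom (-0.034), and ATG13 under quantile normalization (-0.015). Among the other members TSC2, ATG14, ATG2A, ATG2B, ATG9A, PIK3C3, WIPI2 and MAP1LC3A changed sign under size factors and voom. The cause was not tested. Without 1 lamb PRKAA1 lay between -0.16 and 0.0042, ULK1 between -0.045 and 0.11, ATG7 between -0.066 and 0.035, GABARAPL1 between -0.099 and 0.040, and TFEB between -0.085 and 0.16. Of 386 values for 23 members under these settings 352 kept their side of 0 and 34 did not, and the smallest adjusted p was 0.328. ATG12 kept an unadjusted p under 0.05 in each limma setting run, and DEPTOR in each that tested it (its mean is under 5 TPM). RHEB and RB1CC1 lost it under size factors, quantile normalization and voom. Correlations of the deviations of same-numbered lambs were 0.153, -0.12, 0.0545 and 0.0577. They showed no common pairing by number, but so few values cannot exclude one. With lamb number as a replicate block limma called 0 genes (1514 at an unadjusted p under 0.05), the median was 0.11, and 4 members had an unadjusted p under 0.05, with MLST8 (lower) in place of RB1CC1. Low reads limit DEPTOR, TFEB and ATG9B most.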

Other observations

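In deposited TPM the number of the 50 tested members with their highest value in a lamb was 3, 1, 4 and 3 for lambs 1 to 4 of ADL, and 12, 7, 11 and 9 for those of RES. After division by size factors it was 5, 2, 13 and 3 in ADL and 8, 6, 7 and 6 in RES. ADL lamb 3 thus went from 4 to 13 members with that change of scale. The summed TPM of all 51 members lay between 1444.5 and 1596.5 in ADL and between 1576.1 and 1646.8 in RES. Scaled, it lay between 1462.8 and 1699.9 in ADL and between 1461.2 and 1605.6 in RES, with the highest sum in ADL lamb 3. The groups overlapped on both scales.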
